A study of Mus musculus with 2 samples.

Results

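Colon crypt epithelial cells made up 9.49% of the 1117 barcodes in the deposited single-cell count matrix and 20.5% of the 516 barcodes that the study assigned to a cell class. They were chosen as the barcodes that the study's own annotation lists in its 3 epithelial subclusters, namely 32 stem cells, 32 secretory precursors and 42 absorptive precursors, and every one was matched to a column of the matrix. They are described here against the lymphocytes of the same matrix, which were the cells annotated as natural or induced intraepithelial lymphocytes (nIELs and iIELs, 187 and 175 cells) or as B cells (47 cells) and not listed as epithelial. One further Pigr+ cell fell in neither class, and the remaining 601 barcodes carried no annotation.

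The study isolated colon cells that had not been marked by, or were only just being marked by, a Tcf4-driven lineage reporter. All animals were C57BL/6 mice that carried Tcf4 GfpCre/+ and RosamTmG/+ and were killed at 4 to 10 months, so every cell compared here, epithelial or lymphocyte, came from a mouse with a single intact copy of Tcf4 (gene symbol Tcf7l2), the transcription factor of the Wnt pathway whose locus drives Cre. Unrecombined cells kept the membrane Tomato of the reporter (Tcf4 Lin-), recombined cells switched to membrane GFP, and cells holding both colours were called double positive (DP). Crypts were pushed out of inverted colons, digested to single cells, sorted on scatter and on Tomato and GFP, and run by Drop-seq, a droplet method in which each captured transcript carries a unique molecular identifier (UMI), together with human cells that brought the suspension to a workable concentration. The 2 libraries pooled samples 1 to 3 and samples 4 to 6. Barcodes carry a suffix, X1 or X2, that no label ties to either pool, so there is 1 matrix without replicates, and no test between classes is given. Nor does a label tell Tcf4 Lin- from DP barcodes, so the epithelial cells here may hold both. Unsorted colon was not among the samples used here, and the sort sets which epithelial cells could enter.

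The colonic epithelium is a single sheet folded into crypts. Stem cells at the crypt base, kept by Wnt signals, divide and give rise to absorptive cells, which take up salt, water and short-chain fatty acids, and to secretory cells, chiefly goblet cells, which make the mucus that separates microbes from the tissue. Lymphocytes sit between these epithelial cells, which is why dissociated crypts yield both.

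The epithelial cells held 349490 UMIs in all, ranging from 530 to 23205 (median 1606.5), and 912 genes in the median cell. The lymphocytes held 501895 UMIs, ranging from 504 to 5262 (median 1067). Of the epithelial cells 79 carried the suffix X1 and 27 carried X2, and the split differed among subclusters (17 and 15 stem cells, 28 and 4 secretory precursors, 34 and 8 absorptive precursors). Stem cells were the shallowest, at a median of 995.5 UMIs against 1820.5 in the secretory and 1939.5 in the absorptive subcluster. The 4 deepest cells, with 19945 to 23205 UMIs, supplied 24.9% of all epithelial UMIs.

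The epithelial label was set beside 7 markers, Epcam, Pigr, Oit1, Krt8, Krt18, Krt19 and Lgals4. At least 3 of them were found in 103 epithelial cells (97.2%), with a median of 6, but in only 2 lymphocytes (0.489%). The study's methods pick out epithelial cells by their Pigr transcripts and their lack of T cell marker transcripts, as stated for its trajectory analysis. The levels of Pigr and of T cell markers are thus tied to that choice, although 25 of the epithelial cells here held T cell marker UMIs. Without Pigr, at least 3 of the other 6 markers were found in 96 epithelial cells (90.6%) and again in 2 lymphocytes. These 6 came to 3877 UMIs in the epithelial cells and 48 in the lymphocytes. The study also named its epithelial cluster by Epcam, Krt8 and Krt19 and gave Oit1 as unique to it. Its classes were clustered from these same data, so the counts describe the label and do not test it. All 7 markers together took 2.60% of epithelial UMIs and 0.013% of lymphocyte UMIs. The 3 epithelial barcodes with fewer markers had 998 UMIs and 2 markers, 530 UMIs and 1 marker, and 1536 UMIs and 1 marker. The last of these carried 25 UMIs over 9 of 24 T cell and IEL markers and was labelled as an iIEL in the study's all-cell annotation, so its transcripts go against the epithelial label.

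**Figure D1:**
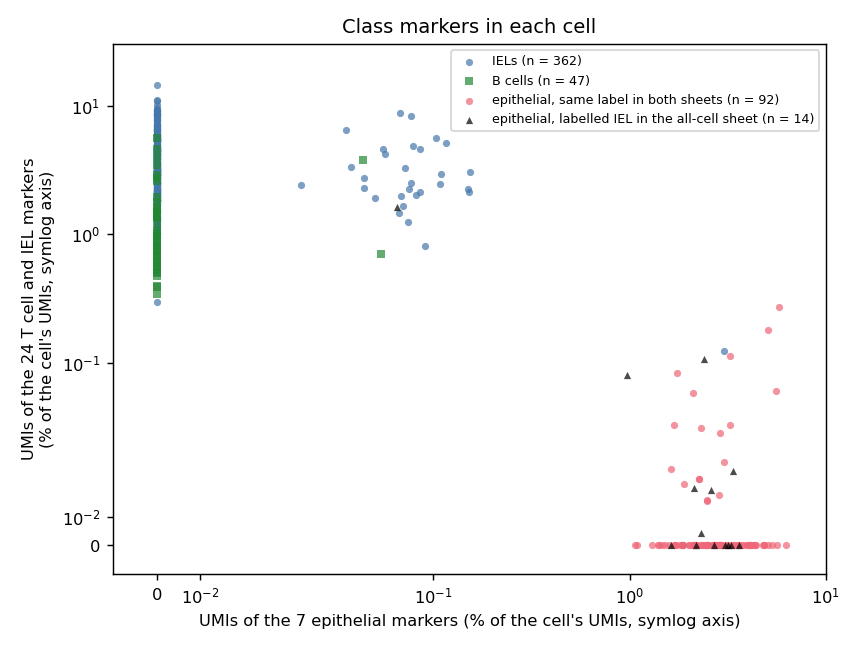
Share of each cell's UMIs in 7 epithelial markers against its share in 24 T cell and intraepithelial lymphocyte markers, both in percent on axes that are linear near 0 and logarithmic beyond, for every epithelial cell and every lymphocyte. Epithelial cells lie between 0.07% and 6.29% on the epithelial axis with 81 of them at 0 on the T cell axis, and 1 epithelial barcode of 1536 UMIs lies among the lymphocytes.

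In all, 14 epithelial barcodes were labelled as IELs in the all-cell annotation (11 iIELs and 3 nIELs) and as epithelial in the subcluster annotation. They included the 4 deepest cells and held 29.1% of epithelial UMIs. Of these 14 barcodes, 13 carried 3 or more epithelial markers and 7 carried no T cell marker at all. Across the whole epithelial class the 24 T cell and IEL markers came to 73 UMIs, against 17072 in the lymphocytes. In the other direction, 2 barcodes labelled as iIELs, of 795 and 537 UMIs, carried 6 and 4 epithelial markers and supplied 34 of the 67 marker UMIs seen in lymphocytes. No barcode sequence occurred with both suffixes, while 24 pairs of epithelial barcodes differed at 1 base, 21 of them within a subcluster, and joining such barcodes left 92 cells. Whether such barcodes came from the same cell was not tested. Counts and shares of cells, with their intervals, take each barcode as its own cell. The marker ratios are given below also without the 3 barcodes that went against their class, which are the iIEL-labelled pair and the barcode of 1536 UMIs.

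Epcam, an adhesion molecule of epithelial cell membranes, had 677 UMIs in the epithelial cells and 19 in the lymphocytes, or 1937 against 37.9 counts per 1e+06 UMIs (CPM), a ratio of 51.2 (95% interval 32.5 to 85.5). Levels, ratios and intervals throughout are of UMIs summed over a class, and the intervals cover counting error only, with each UMI taken as independent. It was seen in 84.9% of epithelial cells (exact 95% interval 76.6 to 91.1) and 4.16% of lymphocytes. With each cell thinned to 700 UMIs, the shares were 65.4% and 2.29%. Without the 3 barcodes that went against their class the ratio of Epcam was 60.9 (37.2 to 107).

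Pigr, the receptor that carries polymeric IgA from the tissue across the epithelium into the lumen, was found in every epithelial cell. The study's methods choose epithelial cells by Pigr, so its level is given as a description. Its level was 14953 CPM in the epithelial cells, against 37.9 CPM in the lymphocytes, a ratio of 395 (253 to 657). In single epithelial cells Pigr ran from 651 to 48134 CPM with a median of 16021, and no cell was at 0. Only 1.71% of lymphocytes held a Pigr UMI. Without the same 3 barcodes the ratio of Pigr was 1503 (644 to 4632), since only 5 of its 19 lymphocyte UMIs lay outside the iIEL-labelled pair.

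Lgals4, a galectin of the intestinal lining, had 1209 and 20 UMIs, a ratio of 86.8 (56.0 to 143), and Oit1 had 785 and 4, a ratio of 282 (110 to 1037). The 3 keratins, which build the intermediate filaments of simple epithelia, had 493 and 2 UMIs (Krt8, ratio 354, 97.5 to 2931), 510 and 3 (Krt19, 244, 83.1 to 1188), and 203 and 0 (Krt18, at least 97.2-fold higher). For a gene at 0 in a class, the bound was taken against a floor of 3 counts over that class. Without the same 3 barcodes Lgals4 had 10 lymphocyte UMIs (ratio 174, 94.2 to 364) and Oit1 had 2 (565, 156 to 4671), and with none left for the keratins their bounds were at least 236-fold for Krt8, 245-fold for Krt19 and 97.3-fold for Krt18. The floor is coarse in set X2, where lymphocytes had only 36916 UMIs, and there the bounds for Krt18 and Krt8 dropped to 8.24 and 11.5.

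Within the epithelium the markers were not level. Krt19 stood at 2273 CPM in absorptive precursors but at 1086 CPM in stem cells and 699 CPM in secretory precursors, and Krt8 at 2181, 681 and 894 CPM. Lgals4 followed the same absorptive bias, with 4875 CPM against 1767 and 2697. Oit1 was highest in secretory precursors, with 3257 CPM against 2013 in stem cells and 1496 in absorptive precursors (3219, 1331 and 1410 CPM without the 4 deepest cells), as was Krt18, with 863 CPM against 623 and 323. Pigr and Epcam varied less, between 12195 and 17901 CPM and between 1390 and 2385 CPM. The subclusters were made by the study from these same genes, so these are descriptions of the subclusters and not independent differences.

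**Figure D2:**
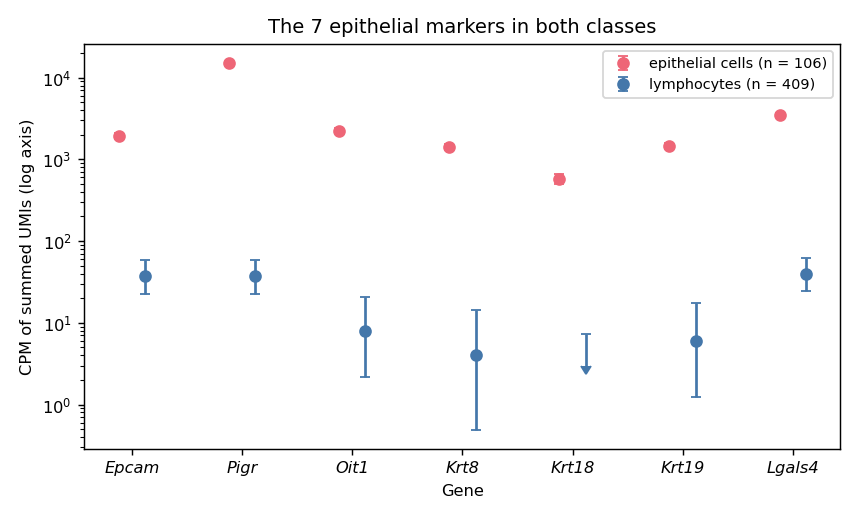
Level of the 7 epithelial markers, in CPM of UMIs summed over each class on a log axis, with bars for the 95% Poisson interval of the counts, for epithelial cells and lymphocytes. The epithelial points run from 581 CPM for Krt18 to 14953 CPM for Pigr, all above the lymphocyte points, which end at 39.8 CPM for Lgals4, and Krt18 has only an upper limit in lymphocytes.

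On mouse build GRCm38 the 7 marker genes lie on 6 chromosomes, with the genes of Krt8 (chr15:101996698-102004482, minus strand) and Krt18 (chr15:102028180-102032027, plus strand), whose proteins pair in one filament, neighbouring each other. Epcam spans chr17:87635979-87651129 on the plus strand and Oit1 spans chr14:8348937-8378754 on the minus strand. Because the caudal-type factors Cdx1 and Cdx2 are known to hold intestinal identity, windows from 250 bases before to 50 bases after the RefSeq start site were searched on both strands for TTTATG (CDX type), CAAAGTCC (HNF4 type), TATAAA and TGTGGT (RUNX type). A window existed for 6 of the 7 markers, all but Krt19. Epcam and Oit1 held the CDX-type letters, Krt8 held TATAAA, and Pigr, Krt18 and Lgals4 held none of the 4. The upstream 250 bases of the pair with CDX-type letters are shown 5′ to 3′ on each gene's own strand, with the match in capitals. In Epcam (chr17:87635729-87635978, GRCm38.p6, plus strand) it reads CATAAA, the reverse complement of TTTATG, and begins 28 bases before the start site. In Oit1 (chr14:8378764-8379013, minus strand) it reads TTTATG and begins 108 bases before it.
Epcam: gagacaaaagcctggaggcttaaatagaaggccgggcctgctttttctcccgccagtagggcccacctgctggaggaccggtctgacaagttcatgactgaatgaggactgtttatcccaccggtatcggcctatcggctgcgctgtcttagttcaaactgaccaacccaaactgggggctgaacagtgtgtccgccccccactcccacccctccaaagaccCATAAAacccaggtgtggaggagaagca
Oit1: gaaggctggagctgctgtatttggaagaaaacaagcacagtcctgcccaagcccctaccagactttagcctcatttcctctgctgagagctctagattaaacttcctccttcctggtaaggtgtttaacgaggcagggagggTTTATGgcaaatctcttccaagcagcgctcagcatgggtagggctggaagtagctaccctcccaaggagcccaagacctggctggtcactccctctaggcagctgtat
Among all 27025 genes with a window, 13.6% held TTTATG, 1.63% CAAAGTCC, 15.7% TATAAA and 18.9% TGTGGT, and TTTATG differs from TTTATA, the reverse complement of TATAAA, only in its last letter, so that no stretch matched both. A window could be matched for only 74.5% of the genes compared below, so no share is given for the genes that were higher or lower. A match describes letters and not a bound site.

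Across the genome, 6172 genes had at least 20 UMIs over both classes. Of them 775, 12.6%, were at least 4-fold higher in the epithelial cells while 713, 11.6%, were at least 4-fold lower. These shares are the background for the counts of called genes in each list below. A gene seen in only 1 class could reach the minimum only through that class, as did 155 of the higher and 225 of the lower genes. The whole interval lay beyond 4-fold for 490 and 345 genes. The median ratio over all 6172 genes was 0.945, and 47.1% had a ratio above 1. Of the genes with a value in both barcode sets, 565 of 724 higher and 323 of 324 lower genes lay on the same side of 1 in both. A further minimum of 50 UMIs was set in the class where a gene was higher, over both sets together. With it, the ratio passed 4-fold the same way in both sets for 159 higher and 205 lower genes.

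Among the genes with at least 50 UMIs and at least 4-fold higher in both barcode sets, the 10 with the largest ratios were mostly products of goblet cells. Muc2, the gel-forming mucin of colonic mucus, had 1896 UMIs against 1 (ratio 2723, 488 to 107601), and Fcgbp, a mucus protein bound to it, had 971 against 1 (1394, 250 to 55133). Clca1, a secreted metalloprotease that processes mucus, had 2174 against 4 (781, 304 to 2867). Spink4 (2969 and 6 UMIs, 711), Reg4 (960 and 2, 689), Agr2 (1814 and 4, 651), Zg16 (757 and 2, 544) and Retnlb (1029 and 3, 493) followed. Agr2 is a disulphide isomerase needed to fold Muc2, and Zg16, Retnlb and Reg4 encode secreted lectin-like or resistin-like proteins of the mucus. Sycn (472 and 1 UMIs, 678) and the chemokine Ccl6 (373 and 1, 536) completed the list, and Sycn alone had its highest level in absorptive precursors, with 1871 CPM against 1220 CPM in secretory precursors and 449 CPM in stem cells.

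Among the genes with at least 50 UMIs and at least 4-fold lower in both sets, the 10 with the smallest ratios were genes of T cells or of leukocytes in general. This order covers measured ratios and bounds alike, and the bound of a gene at 0 in the epithelium rests on the floor of 3 counts. Such a gene thus ranks behind one with 1 epithelial UMI and as many lymphocyte UMIs, so the order does not put absent genes first. In set X2 all 10 genes had 0 epithelial UMIs, so their ratios there rest on the floor too. The study's choice of epithelial cells without T cell markers bears on these genes too. Gzma, a granzyme, had 1 UMI in the epithelial cells and 1214 in the lymphocytes, 845-fold lower in the epithelium (ratio 0.00118, 2.99e-05 to 0.0066). Cd7, a T cell surface protein, had 1 and 1080 (752-fold, ratio 0.00133, 3.36e-05 to 0.00742). With so few epithelial UMIs these intervals are wide and overlap, so the order of such genes is not resolved. The granule proteoglycan Srgn (1 and 676), Gimap4 (1 and 499), Laptm5 (1 and 397), the T cell receptor constant region Trbc1 (1 and 394), Cd3g (2 and 646), Fxyd5 (1 and 314) and Gimap6 (1 and 288) were 201-fold to 471-fold lower. The few transcripts of these genes were not spread evenly, since the single UMIs of Srgn, Gimap4 and Gimap6 and both UMIs of Cd3g came from the barcode of 1536 UMIs that resembled a T cell. The chemokine Ccl5 was 199-fold lower but still had 22 UMIs, in 12.3% of epithelial cells against 80.4% of lymphocytes.

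**Figure D3:**
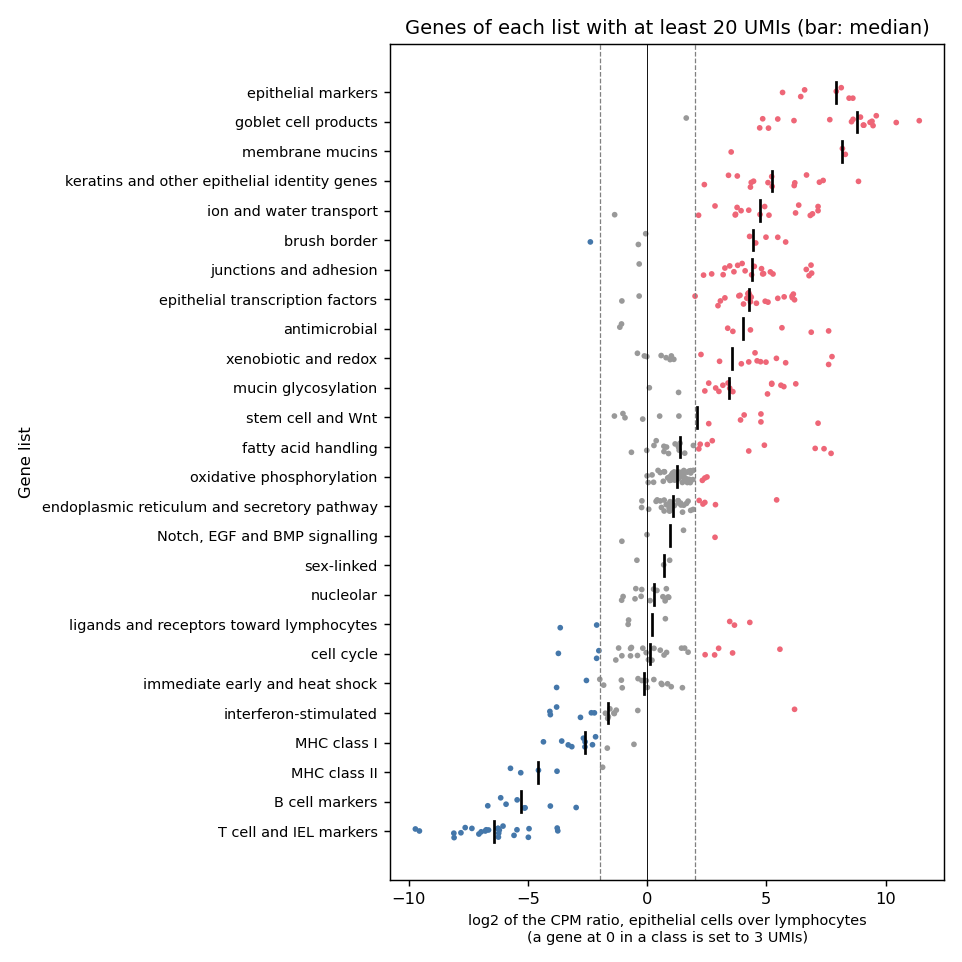
Ratio of the level in epithelial cells to that in lymphocytes, as log2, for each gene with at least 20 UMIs in each gene list, with the median of each list marked by a bar. On the linear scale the list medians run from 0.01 for T cell and IEL markers to 445 for goblet cell products, beside a median of 0.945 over all 6172 genes.

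Genes of epithelial form and contact were higher as groups. Of 20 identity genes, 15 reached 20 UMIs and all 15 were at least 4-fold higher, with a median ratio of 37.3. Ceacam1, an adhesion receptor, had 356 and 7 UMIs (73.0), Tspan1 324 and 1 (465), Tspan8 143 and 2 (103) and Smim22 116 and 1 (167). Spint2, an inhibitor of membrane serine proteases, was also seen in 6.11% of lymphocytes and had a smaller ratio of 13.7 (9.08 to 21.6).

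Of 29 junction and adhesion genes, 21 reached the minimum, 20 were higher and none was lower, with a median ratio of 20.8. Cldn7, a claudin of tight and lateral membranes, led with 326 UMIs against 4 (117, 45.3 to 432), and Cldn3 had 77 and 1 (111). Desmosomal Dsg2 had 83 and 1 UMIs (119), while Ctnnb1, which joins cadherins to actin and also carries the Wnt signal, had 76 and 12 (9.10, 4.92 to 18.4). Cdh1, the epithelial cadherin, had a modest ratio of 5.15 (3.24 to 8.46), since 24 UMIs of it were found in the lymphocytes, 4.89% of which held one. The plakophilin Pkp3 had a ratio of 0.792 and was the one measured junction gene that was not called.

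Of 20 brush border genes, 8 were measured, 5 of them higher and 1 lower, with a median ratio of 21.5 that became 0.957 where a minimum of 50 UMIs was set. Vil1, the actin bundler of microvilli, had 66 UMIs and none in lymphocytes (at least 31.6-fold higher), Myo1a 49 and 0 (at least 23.5-fold), Cdhr5 41 and 0 (at least 19.6-fold) and Eps8l3 39 and 1 (56.0). Ezr, which ties actin to membranes in lymphocytes as well, did not differ by this measure, with 62 and 93 UMIs and a ratio of 0.957 (0.683 to 1.33), and its scaffold partner Slc9a3r1 was lower, with 8 and 60 UMIs (ratio 0.191). Pdzk1 and Anpep, genes of the mature small intestinal border, were at 0 throughout the epithelial cells.

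Goblet cell products took a large share of epithelial transcripts. The 20 listed genes took 70640 CPM in the epithelial cells against 161 CPM in the lymphocytes, and 17 of the 18 measured were higher. They stood at 157262 CPM in the secretory, 36628 CPM in the stem and 12683 CPM in the absorptive subcluster. Counted by cell, their share of UMIs had medians of 13.2%, 0.158% and 0.0452% in that order. The summed level of stem cells rested on 1 cell of 23205 UMIs, labelled as an iIEL among all cells, which gave 9.11% of its UMIs to these genes and supplied 83.6% of the goblet UMIs of the stem cells. Without the 4 deepest cells, of which it was one, the levels were 156090.0 CPM in the secretory, 9075 CPM in the stem and 11969 CPM in the absorptive subcluster, so the order of the last pair turned. Over the whole epithelium 20 cells gave at least 10% of their UMIs to these genes, 19 of them secretory precursors, and 62 cells gave under 1%.

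Mptx1, a pentraxin, was the most abundant member by UMIs, with 9521 against 36 (ratio 380, 274 to 543) and 64734 CPM in secretory precursors. It was seen in 45.3% of epithelial cells but also in 8.31% of lymphocytes, the largest such share among the goblet genes named here, at median depths of 1606.5 and 1067 UMIs. Muc2 was at 12101 CPM in secretory precursors, where 30 of 32 cells (93.8%) held it, against 7 of 32 stem cells and 6 of 42 absorptive precursors. Spink4 and Agr2 followed Muc2, with 19928 and 10640.1 CPM in secretory precursors against 5040 and 4533 CPM in stem cells, and only 376 and 870 CPM in absorptive precursors. Without the 4 deepest cells Spink4 and Agr2 stood at 1876 and 480 CPM in stem cells, and Agr2 was then lower there than in absorptive precursors, at 761 CPM. Ang4, an angiogenin-type ribonuclease with antimicrobial activity, was almost restricted to secretory precursors by level, with 10430 CPM against 43.4 and 264.

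A few goblet genes departed from this order. Retnlb was highest in stem cells, with 5779 CPM against 4648 in secretory precursors, but 394 of its 1029 UMIs came from a single stem-labelled cell of 23205 UMIs, so 38.3% of its signal rested on 1 cell. Without the 4 deepest cells it stood at 109 CPM in stem cells and 4829 CPM in the secretory subcluster. Zg16 was at 0 in all stem cells and stood at 3209.9 and 2266 CPM in the secretory and absorptive subclusters (3799 and 1475 CPM without the 4 deepest cells), yet it was found in only 10.4% of cells and 33.9% of its UMIs were in 1 cell of 12713 UMIs. Sytl2, a vesicle-docking protein, was the one measured member short of 4-fold, with a ratio of 3.11.

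Of the surface mucins, which form the glycocalyx of absorptive cells, Muc3 was arranged the other way. Muc3 had 221 and 1 UMIs (317, 56.4 to 12592) and stood at 1127 CPM in absorptive precursors against 637 CPM in stem cells and 46.6 CPM in the secretory subcluster. Muc13 (203 and 1 UMIs, 292) was closer to level, between 490 and 692 CPM. Muc4 had 24 UMIs and none in the lymphocytes. It was lowest in absorptive precursors, with 6.59 CPM against 130 CPM in stem cells and 109 CPM in secretory precursors.

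Enzymes that add sugars to mucins were higher in 14 of the 16 measured of 23, with a median ratio of 10.7, and were highest in secretory precursors, with 4555 CPM against 2708 in stem cells and 1634 in the absorptive subcluster. St6galnac6, a sialyltransferase, had 157 and 3 UMIs (75.2, 25.3 to 368) and B3gnt7 had 92 and 4 (33.0). Galnt7 was at 700 CPM in secretory precursors against 275 and 105 in stem cells and absorptive precursors, with an overall ratio of 5.98. Galnt1 and Fut8 were not called.

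The endoplasmic reticulum and secretory pathway, which handles these proteins, differed much less between classes. All the 36 listed genes were present and 34 were measured, with a median ratio of 2.13. Of these, 5 were higher (14.7%, near the 12.6% over all genes) and none was lower. The chaperones Hsp90b1 (566 and 406 UMIs, interval 1.76 to 2.28), Hspa5 (467 and 232, 2.89) and Calr (461 and 248, 2.67) were below 4-fold. The disulphide isomerase P4hb had a ratio of 5.34, and its relative Pdia5 one of 43.1. By subcluster the list stood at 16873 CPM in the secretory, 11630 CPM in the stem and 8512 CPM in the absorptive cells, and without the 4 deepest cells at 16271 CPM, 7330 CPM and 7979 CPM.

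**Figure D4:**
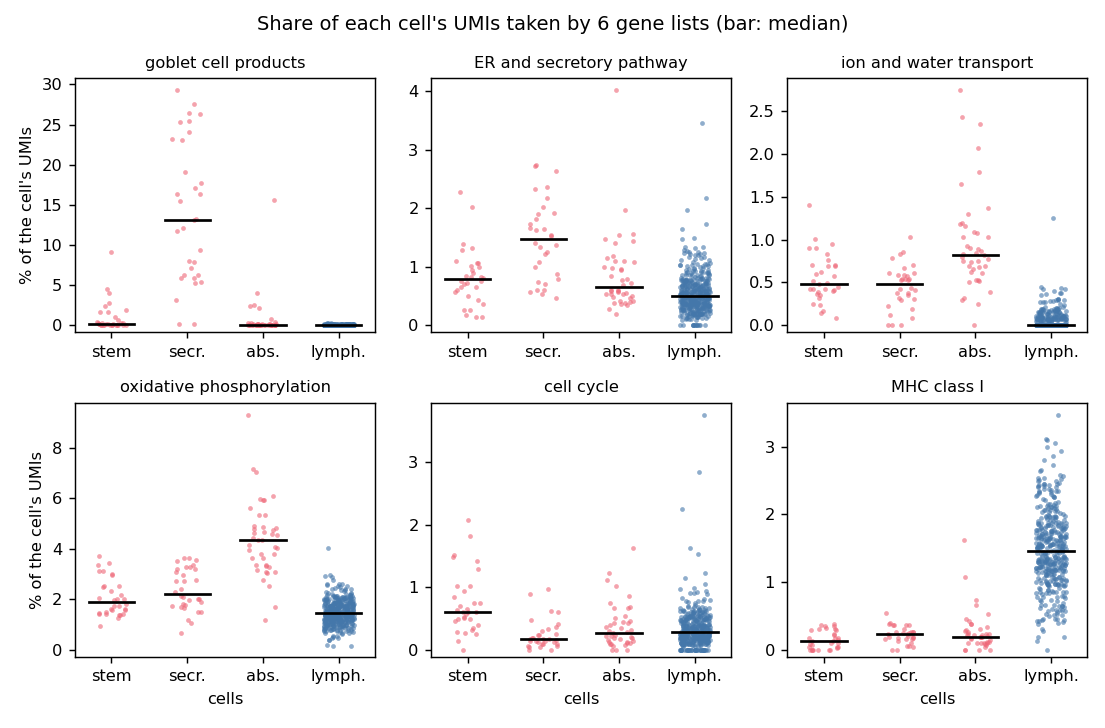
Share of each cell's UMIs, in percent, in 6 gene lists, with 1 point per cell and a bar at the median, for the 3 epithelial subclusters and the lymphocytes. In the order stem, secretory and absorptive, goblet cell products have medians of 0.158%, 13.2% and 0.0452%, and oxidative phosphorylation has medians of 1.88%, 2.20% and 4.34%.

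Genes of absorption were highest in the absorptive precursors. Of 29 ion and water transport genes, 17 were measured and 16 were higher than in lymphocytes, with a median ratio of 26.6, and the list stood at 8960 CPM in absorptive precursors against 4982 CPM in stem cells and 4461 CPM in the secretory subcluster. Atp1b1, the beta subunit of the sodium pump, had 487 and 23 UMIs (30.4). Car2, a carbonic anhydrase, was at 1779 CPM in absorptive precursors against 594 and 474, but its ratio was only 4.45 (3.62 to 5.52) because lymphocytes held 120 UMIs. Slc26a2, a sulphate carrier, had 171 and 19 UMIs (12.9).

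Guca2a, the precursor of guanylin, which opens chloride channels through a cyclase, had 319 and 4 UMIs (115, 44.3 to 423) and was near level between secretory and absorptive precursors, with 1150 and 1001 CPM against 275 in stem cells. Aqp8, the main water channel of the mature colon surface, and the exchanger Slc9a3 were at 0 in every epithelial cell, as were Slc26a6 and Slc3a1. The phosphate carrier Slc20a1 was lower without being called, with a ratio of 0.388.

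Genes of fatty acid handling gave 9 higher (39.1%, beside 12.6% over all genes) and no lower among 23 measured of 30, with a median ratio of 2.60. Fabp2, which binds fatty acids in enterocytes, had 146 and 1 UMIs (210, 37.1 to 8337), and Hao2, a peroxisomal oxidase, 119 and 1 (171). Both were highest in absorptive precursors, Hao2 with 738 CPM in absorptive precursors against 43.4 and 31.1 in stem cells and secretory precursors. Of the 23 measured genes, 21 had a ratio above 1. The housekeeping oxidation genes Etfb (ratio 2.25) and Hadha (2.48) were above the level of lymphocytes but short of 4-fold.

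Of 32 xenobiotic and redox genes, 20 were measured, 12 were higher and none was lower, with a median ratio of 11.8. Adh1, an alcohol dehydrogenase, had a ratio of 27.0, and Selenbp1 had 160 and 10 UMIs (12.2 to 48.8). Selenbp1 was at 929 CPM in absorptive precursors against 57.9 in stem cells. Gpx2, the gastrointestinal glutathione peroxidase, ran in the opposite order, with 1926 CPM in stem cells against 560 and 626 CPM in secretory and absorptive precursors, and had 300 UMIs against 2 (215, 59.1 to 1787). Txn1 (502 and 151 UMIs, 4.77) and Prdx1 (170 and 121, 2.02) were expressed in both classes.

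All but 1 of the 48 nuclear genes of the respiratory complexes had a ratio above 1, and the median was 2.41. Only 3 (Ndufb9, Uqcr10 and Uqcr11) reached 4-fold, or 6.25% beside 12.6% over all genes. Cox7c had 594 and 365 UMIs (2.34, 2.05 to 2.67), Cox4i1 591 and 342 (2.48, 2.17 to 2.84) and Cox7b 489 and 207 (3.39, 2.88 to 4.01). In the median absorptive precursor the list took 4.34% of UMIs, against 2.20% in the median secretory precursor, 1.88% in the median stem cell and 1.44% in the median lymphocyte. Mitochondrial transcripts took 5.80% of epithelial and 2.47% of lymphocyte UMIs, and ribosomal protein genes 11.5% and 20.3%, and with both kinds left out of the totals the median ratio of the list was 2.25.

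Antimicrobial and related genes were split. Of 21, 8 were measured and 6 were higher. Lypd8, which keeps flagellated bacteria off the epithelium, had 410 and 5 UMIs (118, 50.1 to 365) and was highest in absorptive precursors, with 2141 CPM against 544 and 217, and Wfdc2 had 136 and 1 (195). S100a6 was higher (924 and 110 UMIs, 12.1), while its relatives S100a10 and S100a11 were more abundant in lymphocytes, with ratios of 0.474 and 0.451. Lyz1, the Paneth cell lysozyme, and Saa1 and Slpi were at 0 in every epithelial cell.

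Transcription factors of intestinal epithelium were higher in 22 of 24 measured, out of 36, with a median ratio of 19.4. Klf5, a factor of proliferating crypt cells, had 195 and 4 UMIs (70.0, 26.9 to 259) and was level across the subclusters, between 552 and 565 CPM. Ehf had 142 UMIs and Cdx1 112, both with none in the lymphocytes (at least 68.0-fold and 53.6-fold higher). Cdx2 had 42 UMIs and likewise none in the lymphocytes (at least 20.1-fold higher). Klf4, known for goblet and surface cells, had 126 and 10 UMIs (18.1), and Sox9, a factor of the crypt base, 126 and 11 (16.4), with 478 and 459 CPM in stem cells and secretory precursors and 224 CPM in absorptive precursors. Klf6 and Id3 were not called.

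Tcf7l2 itself, the gene on which the sort rested, had 26 UMIs in the epithelial cells and 2 in the lymphocytes (18.7, 4.67 to 162), in 17.9% of epithelial cells. By subcluster Tcf7l2 had 2, 8 and 16 UMIs among stem, secretory and absorptive cells, or 29.0, 62.2 and 105 CPM. The intervals of 3.51 to 105, 26.8 to 123 and 60.3 to 171 all overlap one another. Every animal carried 1 disrupted copy of this gene, and which allele gave these transcripts was not measured. Since Lin- and DP barcodes cannot be told apart, the part of each in these counts was not tested.

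Sox4 and Lgals3 were among the genes that the study used to tell its subclusters apart. Sox4 was at 811 CPM in stem cells, where 19 of 32 cells held it (59.4%, 40.6 to 76.3), against 69.9 CPM in secretory and 72.5 in absorptive precursors. Lgals3 was at 1186 CPM in absorptive precursors, where 33 of 42 cells held it (78.6%, 63.2 to 89.7), against 159 CPM in stem cells and 233 in secretory precursors. Against lymphocytes, Sox4 had a ratio of 8.40 (4.63 to 16.5) and Lgals3 one of 6.48.

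The stem cell and Wnt list was thinly measured, with 12 of 25 genes reaching the minimum, 6 higher and none lower, and a median ratio of 4.25. That median rested on few genes and cells, since it was 1.48 in set X1 alone, 1.53 without epithelial cells holding 2 or more T cell markers, 1.71 against IELs alone and 2.19 without the 4 deepest cells. The list was highest in stem cells, with 1955 CPM against 956 and 619 in secretory and absorptive precursors. Slc12a2, the basolateral sodium, potassium and chloride carrier, led with 100 and 1 UMIs (144, 25.2 to 5728) and 550 CPM in stem cells, and Prom1 had 35 and 0 UMIs and Lrig1 21 and 2. Lgr5, the receptor that marks cycling crypt base stem cells, had only 6 UMIs in the epithelium, of which stem cells had 3, secretory precursors 2 and absorptive precursors 1, and 6 in the lymphocytes. Ascl2, the other defining factor of those cells, had 1 UMI. The order of such genes among subclusters was not detectable at this depth. Hopx had a ratio of 0.524 because 63 UMIs were in the lymphocytes.

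Notch, EGF and BMP genes were mostly below the minimum, with 4 of 25 measured and 1 higher. Smad4, the shared effector of BMP and TGF-beta signals, had 38 and 19 UMIs (2.87, 1.62 to 5.27), Efnb1 20 and 4 (7.18), and Smad7, an inhibitor of the same signals, 12 and 36 (0.479). Ihh, the hedgehog ligand of the epithelium, and the receptor Erbb2 had 19 and 16 UMIs and none in lymphocytes.

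Of 36 cell cycle genes, 26 were measured, 5 were higher (19.2%) and 3 lower (11.5%), beside 12.6% and 11.6% over all genes, with a median ratio of 1.09. The higher members, apart from Ccnd1, act late in the cycle. Mki67 had 75 and 9 UMIs (12.0, 5.98 to 27.2), Top2a 89 and 18 (7.10, 4.25 to 12.5), Birc5 50 and 9 (7.98, 3.88 to 18.4), and Ube2c a ratio of 47.4. The lower members were Mcm4 and Mcm6, helicase subunits that license replication, and Ccnd3, a D-type cyclin common in lymphocytes, while Ccnd1 was higher (75 and 20 UMIs, 5.39) and Ccnd2 near level (0.753).

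At least 1 of 8 genes of late cell cycle and mitosis (Mki67, Top2a, Birc5, Ube2c, Ccna2, Ccnb1, Ccnb2 and Cdk1, a set chosen after their values were seen) was seen in 49 epithelial cells (46.2%) and 29 lymphocytes (7.09%), and at least 2 in 23.6% and 0.978%, at median depths of 1606.5 and 1067 UMIs. Within the epithelium at least 2 were seen in 34.4% of stem cells (11 of 32), the subcluster with the lowest median depth. The share was 12.5% in secretory precursors (4 cells) and 23.8% in the absorptive subcluster (10 of 42). By set it was 20.3% in the epithelial cells of X1 and 33.3% in those of X2. The study clustered these same data and named its stem cells partly by genes of proliferation, so these shares describe the subclusters and do not test them. Nucleolar genes, which make ribosomes in growing cells, showed no difference by class, with none of 15 past 4-fold and a median ratio of 1.20, but differed by subcluster, with 8226 CPM in stem cells against 2798 and 2958 CPM in secretory and absorptive precursors. Ncl alone was at 2737, 575 and 804 CPM.

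Genes of antigen presentation, which nearly all cells use, were lower in the epithelial cells. Of 16 MHC class I genes, 11 were measured and 9 were lower, with a median ratio of 0.16. B2m, the light chain of every class I molecule, had 335 UMIs in the epithelial cells and 3075 in the lymphocytes, 6.39-fold lower, and was seen in 62.3% against 97.3% of cells. H2-D1 (202 and 1774 UMIs) was 6.12-fold lower and H2-K1 (190 and 1225) 4.49-fold lower. B2m was lowest in stem cells, with 594 CPM against 1034 and 1061, and 371 CPM against 865 and 1021 without the 4 deepest cells. After thinning to 700 UMIs, 37.1% of epithelial cells and 96.7% of lymphocytes held B2m. H2-T22 and the peptide loading factor Tapbp (ratio 0.680, 0.444 to 1.02) were not called.

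MHC class II genes were lower in 4 of 5 measured of 7, led by Cd74, the invariant chain (48 and 949 UMIs, 13.8-fold lower), but B cells held 940 of those 949 UMIs. Cd74 stood at 137 CPM in the epithelial cells, 21.2 CPM in the IELs and 12254 CPM in the B cells, so the epithelium lay above the IELs. With IELs alone as the other class the median ratio of the list was 0.608, against 0.04 with both. Interferon-stimulated genes gave 6 lower and 1 higher of 15 measured (40% and 6.67%, beside 11.6% and 12.6% over all genes), with a median of 0.32. Isg15, Gbp7, Xaf1 and Zbp1 were lower, and Gbp2 and Gbp4 were at 0 in the epithelial cells. The exception was Ifi27l2b, with 101 and 2 UMIs (72.5, 19.6 to 607).

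Genes through which the epithelium signals to lymphocytes, or receives their signals, gave 3 higher and 2 lower of 8 measured, out of 34. These are 37.5% and 25% of few genes, beside 12.6% and 11.6% over all genes. Il18, a cytokine of the IL-1 family, had 55 and 4 UMIs (19.7, 7.29 to 75.0) and 316 CPM in absorptive precursors against 57.9 and 23.3, although 27.3% of its UMIs were in 1 cell. The 2 chains of the interferon gamma receptor went opposite ways, with Ifngr2 higher (44 and 5 UMIs, 12.6, 5.03 to 40.8) and Ifngr1 lower (21 and 131, ratio 0.230, 0.138 to 0.367). Il13ra1, a receptor for the cytokine that drives mucus production, had 23 UMIs and none in lymphocytes, and Tnfsf10 had none in the epithelium and 54 in lymphocytes (at least 12.5-fold lower). Cxcl16, Cd274 and Il10ra were at 0 in all epithelial cells.

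Genes known to respond to dissociation were near one level in both classes. Of 16 measured immediate early and heat shock genes none was higher and 2 were lower (12.5%, near the 11.6% over all genes), with a median ratio of 0.91. Jun (ratio 1.00), Jund (0.972), Fos (0.855) and Hspa8 (1.21) lay near 1, and Junb (0.171) and Dusp1 (1 and 20 UMIs) were lower. In single epithelial cells the response was uneven, since 36.1% of Fos UMIs and 32.5% of Jun UMIs came from 1 secretory precursor of 11080 UMIs.

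Markers of other cell types that a crypt preparation can hold were at low counts, which for T cell markers is tied to the study's choice of cells. All 24 T cell and IEL markers and all 8 measured B cell markers were lower, and Cd3e, Cd247, Cd8a, Cd8b1, Zap70, Ptprcap and Gzmb were at 0 in every epithelial cell. Stromal and endothelial markers came to 9 UMIs, of which Pecam1 gave 6, with Vim at 0, and myeloid markers to 78 UMIs, of which Cst3, a gene of many cell types, gave 76, with Lyz2 at 0. Erythroid markers gave none and enteroendocrine markers 1 UMI. Tuft cell markers gave 12 UMIs, 10 of them from 6 markers in 1 barcode of 1239 UMIs, labelled as a secretory precursor in the subclusters and as an nIEL among all cells, which also held 4 epithelial markers.

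Transcripts that depend on the sex of the animal differed between barcode sets. Xist had 79 UMIs in the 27 epithelial cells of set X2 and 36 in the 79 of X1, while 4 Y-linked genes had 1 and 48. Only 1 epithelial cell held both kinds. Stem cells came more evenly from X1 and X2 than the other subclusters did, and they held 71 of the 115 epithelial Xist UMIs against 5 of the 49 Y-linked ones. Set and subcluster thus moved together, and the part of the set in the subcluster levels above was not tested.

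Summed levels rested unevenly on single cells. Among the 1171 genes with at least 50 UMIs in the epithelium, the top cell for a gene supplied 10.96% of its UMIs in the median. It supplied at least 25% for 28 genes, and at least 50% for 1 gene, Spink1, a trypsin inhibitor, whose 79 UMIs were in 4 cells and 51 of them (64.6%) in 1. The next were Prdx6 (44.8%), Hadhb (39.7%), Retnlb (38.3%), Dnaja1 (37.1%), Fos (36.1%) and Clps (35.6%), a colipase, followed by Rn18s-rs5 (34.6%), Zg16 (33.9%) and Tff3 (32.7%). In contrast, the figures for Pigr, Muc2 and Mptx1 were 7.27%, 18.7% and 19.4%. The Prdx6 and Tff3 maxima were in the same absorptive precursor of 23171 UMIs, and those of Spink1 and Zg16 in the same secretory precursor of 12713 UMIs.

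**Figure D5:**
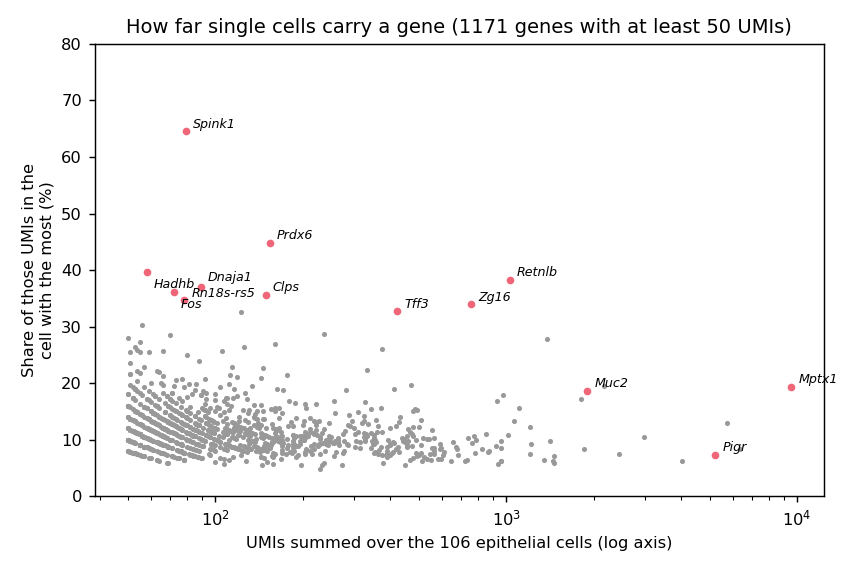
Share of a gene's epithelial UMIs that came from its top cell, in percent, against the gene's UMIs in all epithelial cells on a log axis, for 1171 genes with at least 50 UMIs. The median is 10.96%, and Spink1 stands highest at 64.6%, while Pigr lies at 7.27%.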

How the data were processed

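Colon cells of Tcf4 GfpCre/+ RosamTmG/+ mice were profiled by Drop-seq in 2 pooled libraries. The authors deposited 1 matrix of UMI counts, with 19294 gene symbols and 1117 barcodes, which was used as it stands. Per the submitters' processing notes, reads went through STAR (2.5.0) and Picard (1.137) on hg19 and mm10, with roles not stated. The study used the Drop-seq pipeline and clustered its cells with Seurat. The filters applied before deposit are not given in the sources used here. The suffixes X1 and X2 could not be mapped to the 2 samples, so the matrix was treated as 1 sample without replicates and no test was run.

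Cells were the 106 barcodes of the study's epithelial subclusters and 409 lymphocytes outside them. The subclusters were made by the authors from these genes. The cells, gene lists and settings were chosen with earlier results of these data known.

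UMIs were summed over each class and expressed per 1e+06 UMIs (CPM), and the ratio of CPM was taken with an exact conditional binomial 95% interval for genes with at least 20 UMIs over both classes. Genes at a ratio of at least 4, or at most 0.25, were called higher or lower. A gene at 0 in a class was set to 3 counts over that class, and no ratio was given where both classes had 3 or fewer. Shares of cells have Clopper-Pearson intervals, and shares were repeated with cells thinned to 700 UMIs, leaving out shallower cells. Shares were not repeated with barcodes that differ at 1 base joined. No doublet caller was run, and barcodes holding markers of both classes were counted instead. Only the ratio and its interval were tested on simulated data, which were Poisson counts of summed UMIs without variation between cells. The computations used Python 3.11.15, numpy 2.4.6, scipy 1.17.1, pandas 2.3.3 and matplotlib 3.10.9. Gene positions are from GENCODE on GRCm38, and promoter windows are from RefSeq on GRCm38.p6.

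Genes were named by rule, as the 7 markers, the 10 largest ratios in each direction with at least 50 UMIs and a ratio of 4 in both barcode sets, the 10 genes with the largest share of UMIs in 1 cell, the 5 members of each list with the most epithelial UMIs, list members at 0, and Tcf7l2, Sox4, Muc2 and Lgals3. A few genes that the rule would name are not reported here. Other genes named within a list, such as those called or not called in it, were named after their values were seen. Alternatives were other barcode sets, cell choices, totals, UMI minimums, pooling by the mean of each cell's CPM, and joining barcodes that differ at 1 base.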

Additional observations from a re-analysis of the deposited data

Results flagged for a closer look

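Epithelial transcripts were also present outside the annotated cells. The 601 barcodes that the study assigned to no class, with a median of 212 UMIs, held 1309 UMIs of the 7 epithelial markers, or 0.762% of their UMIs, and 45 of them carried at least 3 of the markers, against 0.013% of UMIs and 2 barcodes among the annotated lymphocytes. These 45 barcodes had a median of 343 UMIs, below the shallowest annotated epithelial cell at 530, and 36.8% of all UMIs in unassigned barcodes were mitochondrial against 5.80% in the epithelial cells. They entered no comparison.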

How the results depend on the processing

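The 7 markers stayed higher in the epithelial cells under all 13 alternatives. The minimums of 10 and 50 UMIs, and joining barcodes with summed UMIs, could not change a marker's ratio. The numbers of genes at least 4-fold higher and lower, 775 and 713, became 202 and 77 in barcode set X2 alone, which holds fewer UMIs. With a minimum of 10 UMIs 1290 genes were higher, and with a minimum of 50 UMIs 322 were higher and 316 lower, as fewer genes were then tested. Under the other alternatives the numbers stayed within 1.5 times, from 600 to 813 higher and from 612 to 955 lower. At the minimum of 50 UMIs the median ratio of the brush border list was 0.957 and that of the stem cell and Wnt list 0.524, below 1, as few members remained. In set X2 alone 16 other values moved. There the medians were 19.9 for the 7 markers, 5.13 for keratins and other identity genes, 3.92 for junctions, 6.89 for membrane mucins, 3.65 for mucin glycosylation, 5.61 for ion and water transport, 4.52 for transcription factors, 0.0256 for T cell and IEL markers and 2.13 for sex-linked genes, and the single interferon-stimulated gene that could be measured had a ratio of 3.92. The ratios there were 19.9 for Epcam, 194 for Pigr, 29.2 for Oit1, 11.5 for Krt8, 8.24 for Krt18 and 15.5 for Krt19. The median of the stem cell and Wnt list ran from 1.48 to 7.005 over the alternatives at the minimums of 10 and 20 UMIs. The alternatives that joined barcodes with the mean of each cell's CPM, and that left out the 3 barcodes whose markers went against their class (778 higher and 706 lower), were chosen after seeing the data, as were the subcluster levels without the 4 deepest cells. Without the 4 deepest cells 618 genes were higher, and without the cells labelled as IELs 603. Leaving out 1 sample could not be done and no paired analysis was possible because no label maps the barcodes to the samples. Depth limits low genes such as Lgr5 and Ascl2, whose order among subclusters was not detectable.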
